A study of Homo sapiens with 6 samples.

Results

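The HOX cluster genes were described in K562 cells in which METTL3 or METTL14 had been knocked down. The members were the protein-coding rows whose Ensembl identifier maps to a symbol made of HOXA, HOXB, HOXC or HOXD and a number, and 39 of the 61661 rows of the count table met this rule. They comprised 11 HOXA genes on the minus strand of chr7:27092993-27200106, 10 HOXB genes on the minus strand of chr17:48528526-48729178, 9 HOXC genes on the plus strand of chr12:53938765-54056030 and 9 HOXD genes on the plus strand of chr2:176092891-176190907 (GRCh38, GENCODE 29). K562 is an established cell line from the pleural effusion of a chronic myeloid leukemia in blast phase. RNA-seq of poly(A)-selected RNA was available for 6 libraries, 2 in each of the groups shCTR (genotype labelled WT), shMETTL3 (METTL3 knockdown) and shMETTL14 (METTL14 knockdown). All groups were grown in the same serum-containing medium and harvested during logarithmic growth, with no drug treatment given beyond the selection of the lines. The shCTR and shMETTL3 lines were stable lines made with lentiviral vectors that carry GFP and a puromycin resistance gene, the control vector holding a nonsense sequence. Cells infected with these vectors were screened with puromycin. How the shMETTL14 line was made is not given in the sources used here. The shCTR and shMETTL3 groups were thus 1 line each, and the number of shMETTL14 lines is not given. The labels do not say whether the 2 libraries of a group came from separate cultures. Every p-value thus measures the spread between these libraries, which may be technical. An effect of a knockdown cannot be told apart from other differences between the lines.

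METTL3 and METTL14 form the methyltransferase that deposits N6-methyladenosine on mRNA. HOX genes encode homeodomain transcription factors that specify position along the body axis, and they lie in clusters whose gene order follows the order of their expression in the embryo. Their proteins bind DNA with MEIS, PBX and PKNOX cofactors, MLL and other trithorax proteins keep the clusters active, and Polycomb proteins keep them silent. In blood, HOX genes are active in stem and progenitor cells and decline during differentiation, and HOXA9 with MEIS1 is the best known pair of this system in acute leukemia.

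The libraries held between 19292574 and 20115304 reads each and 17686 genes passed the filter on low counts. In shMETTL3 cells METTL3 itself was lower by a log2 fold change of -0.87 ± 0.0783 (SE), and in shMETTL14 cells METTL14 was lower by -0.76 ± 0.0886, both called. All 10 erythroleukemia markers examined, such as GATA1 and HBE1, exceeded 3 reads, and their summed level was between 1891 and 2118 CPM (reads scaled to library size and TMM factor) in all 6 libraries. Of the markers of other cell types, 3 of 5 lymphoid genes, 2 of 6 monocyte and granulocyte genes, 3 of 6 epithelial and mesothelial genes and 3 of 4 fibroblast genes exceeded 3 reads in some library, and KRT5 and CDH1 had 0 reads.

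Of the HOX genes whose level passed the test, HOXD8 was the only one with a promoter in the RefSeq promoter table for GRCh38.p14. The table matched 20 of the 39 members with 27 windows. The 250 bases upstream of the HOXD8 start are shown beside those of HOXD10 and HOXD4, the nearest HOXD genes with a window on either side of it, both of which were at or under 3 reads in every library. HOXD4 shares 80.5% of its exon bases with another gene on the same strand, AC009336.2, and HOXD10 16.8% with HOXD11, so reads of these genes may not be separated. Capitals mark matches, on either strand, to 4 motifs: TATAAA as the TATA box, GGGCGG as the GC box, CCAAT, which reads ATTGG on the other strand, and TTTATG as the core recognised by caudal-type factors.
HOXD8, chr2:176129455-176129704, plus strand: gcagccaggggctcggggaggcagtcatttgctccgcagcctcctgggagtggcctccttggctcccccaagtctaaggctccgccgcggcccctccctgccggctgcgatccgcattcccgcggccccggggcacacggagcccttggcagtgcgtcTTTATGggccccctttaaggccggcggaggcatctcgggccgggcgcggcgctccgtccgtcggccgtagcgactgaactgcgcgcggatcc
HOXD10, chr2:176116528-176116777, plus strand: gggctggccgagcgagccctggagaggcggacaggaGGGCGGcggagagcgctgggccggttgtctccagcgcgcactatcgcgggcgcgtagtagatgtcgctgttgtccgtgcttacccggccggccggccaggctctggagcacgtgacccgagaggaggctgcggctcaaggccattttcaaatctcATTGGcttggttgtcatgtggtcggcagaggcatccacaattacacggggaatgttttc
HOXD4, chr2:176151300-176151549, plus strand: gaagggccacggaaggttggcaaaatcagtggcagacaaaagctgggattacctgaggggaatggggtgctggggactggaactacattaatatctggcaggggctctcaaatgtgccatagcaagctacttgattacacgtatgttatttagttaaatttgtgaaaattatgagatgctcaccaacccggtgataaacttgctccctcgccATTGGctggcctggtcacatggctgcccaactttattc
The HOXD8 window was 72.4% G+C and held 28 CG dinucleotides. It held TTTATG and none of the other motifs. The HOXD10 window held 23 CG dinucleotides with GGGCGG and CCAAT, and the HOXD4 window held 4 CG dinucleotides with CCAAT. The median was 19 CG dinucleotides over the 27 HOX windows and 11 over all 35116 promoters of the table. TTTATG, which on the other strand shares its last letters with TATAAA, was present in 9.64% of all promoters, TATAAA in 10.7%, GGGCGG in 42.6% and CCAAT in 32.0%. In the 27 HOX windows the shares were 11.1% for TTTATG, 18.5% for TATAAA, 48.1% for GGGCGG and 66.7% for CCAAT.

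Which HOX genes are read in K562 cells was examined first. Of the 39 members, 18 passed the filter and were tested, 6 others exceeded 3 reads in at least 1 library, 9 had reads but no more than 3 in any library, and 6 had no read in any of the 6 libraries. A count of 3 reads, the limit that 0 reads allows, corresponds to 0.150 to 0.157 CPM and covers counting error only. The members without reads were HOXA7, HOXA9, HOXA10, HOXB1, HOXD1 and HOXD11. HOXA9 and HOXA10, the HOXA genes most often studied in myeloid leukemia, were therefore under this limit in every group. HOXA9 shares 15.9% of its exon bases with genes on the same strand and 13.9% on the other, and HOXA10 9.93% and 16.4%. HOXA7 shares 62.5% and HOXD1 58.1% with genes on the other strand. How shared reads were handled is not given, so the counts of these genes may leave such reads out. Together the HOX genes took 0.0504% of all reads, of which the HOXB cluster held 90.9%, HOXC 7.44%, HOXA 1.24% and HOXD 0.451%.

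**Figure D1:**
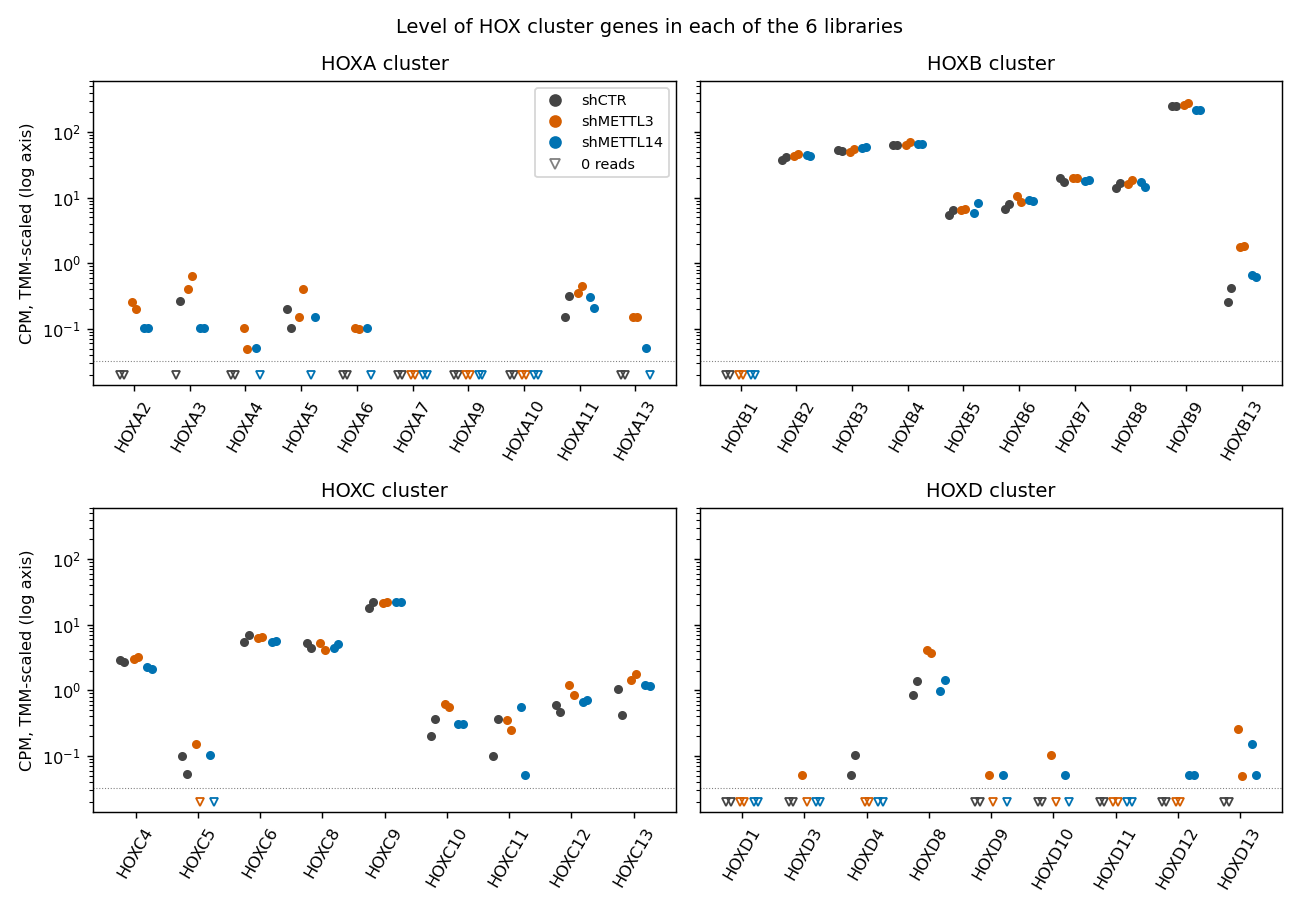
Level of the HOX genes in each library, in TMM-scaled CPM on a log axis, with one panel for each cluster and open triangles for libraries with 0 reads. The HOXB panel holds the highest levels, led by HOXB9, and most HOXA and HOXD genes sit near or under the level of 3 reads.

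Levels between genes were compared per kilobase of the longest coding transcript. HOXB9 (ENSG00000170689) was highest at a mean of 94.7 CPM per kb over the 6 libraries. It alone gave 48.4% of all HOX reads and 53.3% of those in the HOXB cluster. HOXB2 followed at 27.3 CPM per kb and HOXB4, which expands hematopoietic stem cells when it is overexpressed, at 17.4 CPM per kb. The library ranges of these 3 genes did not overlap with those of their neighbours in the order. HOXB4 shares 17.1% of its exon bases with genes on the same strand, among them HOXB3, so reads of these genes may not be separated.
HOXC9, HOXB7 and HOXB3 came next at 14.1, 13.8 and 13.0 CPM per kb, with overlapping library ranges. HOXB8, a gene that blocks the differentiation of myeloid progenitors when it is expressed by force, was lower at 8.95 CPM per kb. From HOXB6 (4.41 CPM per kb) downward, each gene overlapped with the next in the order HOXB5, HOXC8, HOXC6, HOXC4, HOXD8, HOXC13, HOXB13, HOXC12 and HOXC10, which was last at 0.202 CPM per kb. Within groups the low end of this order changed: of these genes, HOXB13 was last in shCTR at 0.0969 CPM per kb, below HOXC10 at 0.147 CPM per kb, and HOXD8 was above HOXC4 in shMETTL3 cells at 2.05 against 1.88 CPM per kb. With the union of all exons as length, HOXB3 and HOXB8 exchanged places.

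The clusters differed in how much of their length was read. In HOXB every gene but HOXB1 was tested, and in HOXC all but HOXC5 and HOXC11. In HOXD the only tested gene was HOXD8, in the middle of its cluster.

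The shMETTL3 libraries were then compared with those of shCTR. HOXD8 and HOXB13 were higher in shMETTL3 cells, and none was lower by edgeR or DESeq2, also at an unadjusted p under 0.05. Over all tested genes 8.73% were called higher and 7.73% lower in this comparison, so 2 of 18 HOX genes called higher was close to the share of all genes. Of the 18 tested HOX genes, 16 had a positive log2 fold change, as did 50.5% of all tested genes. The median of the 18 was 0.17, against a median of 0.00299 over all tested genes. HOXC10, 1 of the 16, reached the minimum count of 10 of the filter only in the shMETTL3 libraries, so its sign is not independent of the filter. Scaling by library size alone, without TMM factors, made all 18 positive, and it moved the median over all tested genes to 0.0587. An unadjusted p under 0.05 was reached by 7 of the 18, and by 5291 of all 17686 tested genes.

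HOXD8 (ENSG00000175879, chr2:176129694-176132695, plus strand), a homeobox gene of the central HOXD cluster, had 17 and 27 reads in shCTR, 82 and 74 in shMETTL3 and 19 and 28 in shMETTL14 libraries. Both shMETTL3 libraries were above all the others, and the shCTR and shMETTL14 libraries overlapped. Its level was 1.14 ± 0.389 CPM in shCTR, 3.94 ± 0.344 CPM in shMETTL3 and 1.20 ± 0.327 CPM in shMETTL14 cells (mean ± SD, n = 2). The log2 fold change of shMETTL3 against shCTR was 1.79 ± 0.280 (SE), a fold change of 3.46 (edgeR quasi-likelihood test, Benjamini-Hochberg adjusted p = 0.000206). HOXD8 was called in all 15 alternative analyses of this comparison, with an adjusted p of at most 0.0055. No other annotated exon overlaps its own, so its reads were not shared with a neighbour.

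HOXB13 (ENSG00000159184, chr17:48724763-48729178, minus strand), the most posterior HOXB gene and a factor known from the prostate and hindgut, had 5 and 8 reads in shCTR, 35 and 37 in shMETTL3 and 13 and 12 in shMETTL14 libraries. The 3 groups did not overlap, with shCTR lowest and shMETTL3 highest. The mean levels were 0.336 ± 0.117, 1.82 ± 0.0441 and 0.638 ± 0.0350 CPM, respectively. Against shCTR, the log2 fold change in shMETTL3 cells was 2.42 ± 0.402 (SE), a fold change of 5.34 (edgeR adjusted p = 0.000361). It was called in all 14 alternatives that gave an adjusted p (at most 0.0093), while DESeq2 gave none for HOXB13 because of its filter on low means (unadjusted p = 0.00017). Few reads support this gene, and of the 4917 tested genes with a mean under 50 reads 6.55% were called higher.

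Both genes were sparse in absolute terms, HOXD8 at 1.09 and HOXB13 at 0.268 CPM per kb over all libraries. In bulk RNA more cells with a transcript and more transcript per cell cannot be told apart. The summed level of the lymphoid markers ranged from 5.88 to 6.28 CPM in shCTR, 8.82 to 9.48 CPM in shMETTL3 and 6.47 to 7.15 CPM in shMETTL14 libraries, and that of the fibroblast markers from 2.88 to 3.45, 6.44 to 6.93 and 3.92 to 3.93 CPM. The monocyte and granulocyte sum, nearly all from LYZ, ranged from 42.4 to 44.1 CPM in shCTR, 15.8 to 16.8 CPM in shMETTL3 and 60.4 to 65.8 CPM in shMETTL14 libraries. The epithelial and mesothelial sum ranged from 92.0 to 93.7, 70.7 to 71.6 and 77.5 to 78.8 CPM. Their part in the HOX results was not tested.

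**Figure D2:**
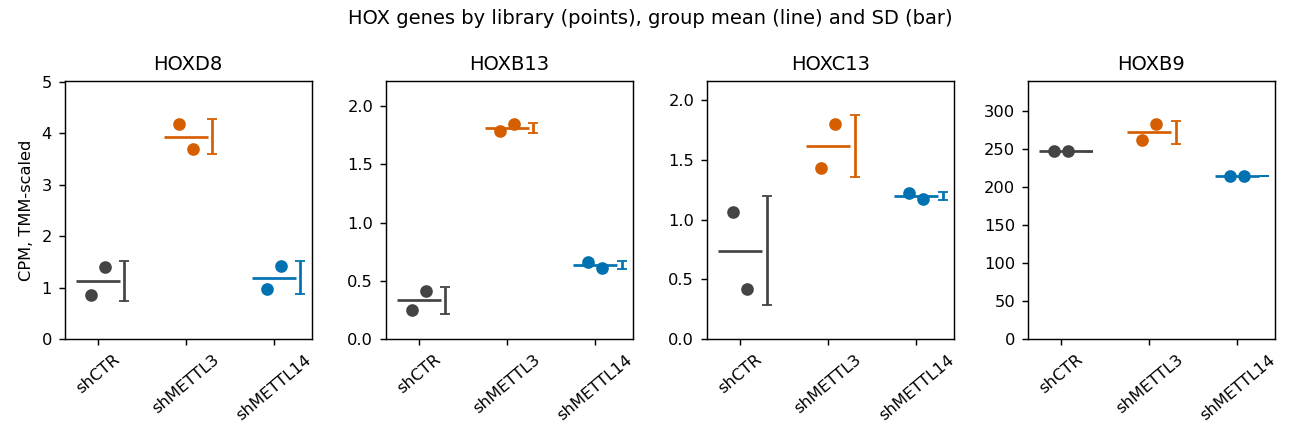
Level in TMM-scaled CPM of HOXD8, HOXB13, HOXC13 and HOXB9 in each library (points), with the group mean (line) and SD (bar, n = 2). HOXD8 is near 1 CPM in shCTR and shMETTL14 libraries and near 4 CPM in shMETTL3 libraries, and HOXB13 separates all 3 groups.

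The posterior HOXC genes had positive fold changes that did not pass the test. HOXC13, a regulator of hair keratin genes, had 21 and 8 reads in shCTR, 28 and 36 in shMETTL3 and 24 and 23 in shMETTL14 libraries. The spread between its shCTR libraries was the widest of the 3 groups. Its log2 fold change in shMETTL3 cells was 1.11 ± 0.382 (SE, adjusted p = 0.0536), and it was called without shCTR replicate 1, with scaling by library size alone and with the replicate number as a block (leaving out 1 library at a time moved the fold change between 0.59 and 1.93).
HOXC12 had 12 and 9, 24 and 17, and 13 and 14 reads in the same order of groups, with a log2 fold change of 0.93 ± 0.415 (adjusted p = 0.137). HOXC10 had 4 and 7, 12 and 11, and 6 and 6 reads, with a log2 fold change of 1.02 ± 0.552 (adjusted p = 0.226). It reached the minimum count of 10 of the filter only in the shMETTL3 libraries and was tested only through that group. At these counts the 95% intervals of the log2 fold change reached from 0.12 to 1.74 for HOXC12 and from -0.06 to 2.10 for HOXC10.

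The other HOXC genes, read at higher levels, did not pass the test. HOXC9 had 356 and 425 reads in shCTR, 423 and 443 in shMETTL3 and 434 and 429 in shMETTL14 libraries (log2 fold change in shMETTL3 cells 0.12 ± 0.105). HOXC8, which patterns the thoracic skeleton, had 103 and 85, 102 and 84, and 86 and 100 reads (-0.04 ± 0.190). HOXC6 had 109 and 133, 123 and 131, and 107 and 111 reads (0.04 ± 0.165). HOXC4, whose exons share 17.8% of their bases with genes on the same strand, among them HOXC6, had 57 and 51, 59 and 65, and 45 and 41 reads (0.17 ± 0.219). None of these 4 genes passed the test in any of the 3 comparisons.

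In the HOXB cluster the abundant genes had small fold changes in shMETTL3 cells that did not pass the test. HOXB9 had 4864 and 4728 reads in shCTR, 5120 and 5658 in shMETTL3 and 4207 and 4201 in shMETTL14 libraries, so the groups were ordered without overlap. Its log2 fold change in shMETTL3 cells was 0.14 ± 0.0597 (adjusted p = 0.123). HOXB4 had 1260 and 1217, 1247 and 1416, and 1309 and 1268 reads (0.07 ± 0.0703).
HOXB3 was the only HOXB gene with a negative estimate, at -0.01 ± 0.0749. It had 1065 and 985 reads in shCTR, 964 and 1114 in shMETTL3 and 1131 and 1164 in shMETTL14 libraries. HOXB2 had 728 and 806, 845 and 920, and 870 and 847 reads (0.17 ± 0.0805, adjusted p = 0.158). HOXB2 was called only without shCTR replicate 2, with a range of 0.08 to 0.27 on leaving out libraries.

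HOXB6, which is expressed in erythroid progenitors, had 131 and 152 reads in shCTR, 209 and 171 in shMETTL3 and 179 and 176 in shMETTL14 libraries. Both knockdowns were above shCTR, with a log2 fold change of 0.40 ± 0.150 (adjusted p = 0.0783) in shMETTL3 and 0.31 ± 0.151 (adjusted p = 0.246) in shMETTL14 cells. In shMETTL3 cells it was called without shCTR replicate 2 and with library size alone. HOXB6 shares 16.6% of its exon bases with HOXB3 on the same strand and 16.3% with HOXB-AS3 on the other, and the strand setting of the counting is not given, so reads of these genes may not be separated.
HOXB7 had 395 and 328, 391 and 394, and 357 and 363 reads (log2 fold change in shMETTL3 cells 0.09 ± 0.103). HOXB8 had 280 and 324, 313 and 378, and 344 and 283 reads (0.16 ± 0.125), and HOXB5 had 107 and 125, 125 and 133, and 115 and 165 reads (0.12 ± 0.181). The shMETTL3 and shCTR libraries overlapped for these 3 genes.

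**Figure D3:**
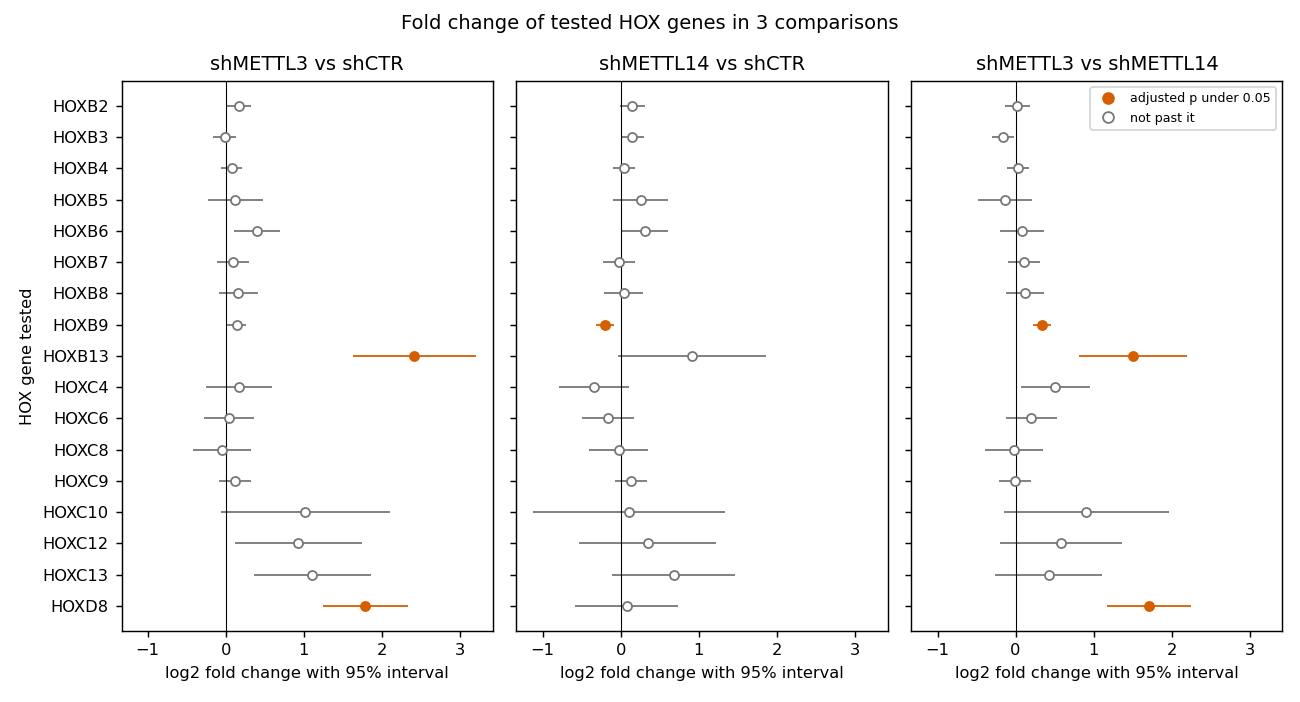
Log2 fold change of tested HOX genes in each of the 3 comparisons, with bars for the 95% interval and filled points for an adjusted p under 0.05. HOXD8 and HOXB13 stand apart from the other genes in both comparisons of shMETTL3 cells, and HOXB9 is called in both comparisons of shMETTL14 cells.

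The shMETTL14 libraries were compared with the same shCTR libraries. HOXB9 was lower in shMETTL14 cells and no HOX gene was higher by edgeR or DESeq2, also at an unadjusted p under 0.05. Over all tested genes 3.43% were called higher and 3.26% lower. The HOXB9 level was 247 ± 0.580 CPM in shCTR and 214 ± 0.133 CPM in shMETTL14 cells (mean ± SD, n = 2), a log2 fold change of -0.20 ± 0.0600 (SE, edgeR adjusted p = 0.0477). The call was close to the threshold: it was lost on leaving out any 1 library other than shCTR replicate 2, with adjusted p-values up to 0.284 at fold changes between -0.21 and -0.20, and also with scaling by library size alone, with both looser filters on low counts and with the 4 compared libraries alone.

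HOXD8 did not pass the test in shMETTL14 cells, at a log2 fold change of 0.08 ± 0.337 (adjusted p = 0.926, 95% interval -0.58 to 0.74). HOXB13 had a log2 fold change of 0.92 ± 0.483 (adjusted p = 0.295, 95% interval -0.03 to 1.86). Among the other members HOXC13 had 0.68 ± 0.402 and HOXC4 -0.34 ± 0.231. Of the 18 genes, 12 had a positive fold change, with a median of 0.10 against -0.00014 over all tested genes, and the number was 13 with scaling by library size alone.

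The knockdowns were compared directly, since both are set against the same control libraries. HOXD8, HOXB13 and HOXB9 were higher in shMETTL3 than in shMETTL14 cells, where 6.65% of all tested genes were called higher and 5.49% lower. None was called lower by edgeR or DESeq2, and 1, HOXB3, was lower at an unadjusted p under 0.05. The log2 difference was 1.71 ± 0.277 (SE, edgeR adjusted p = 0.00028) for HOXD8, a fold change of 3.27. For HOXB9 it was 0.34 ± 0.0599 (adjusted p = 0.000617), a fold change of 1.27. Both genes kept this call in all 15 alternatives.
HOXB13 differed by 1.50 ± 0.353 (adjusted p = 0.0072), a fold change of 2.83. Without either shMETTL3 library or either shMETTL14 library the difference stayed between 1.45 and 1.55 but missed the threshold, with an adjusted p of up to 0.0837, and it also missed it with DESeq2. HOXB3 had the most negative estimate at -0.16 ± 0.0743 (adjusted p = 0.183), and it was called lower when the trends on GC content and length were removed. The median of the 18 genes was 0.16, against -0.00166 over all tested genes. Of the 18, 14 were positive, HOXC10 with its limit among them, as were 49.7% of all tested genes. With scaling by library size alone 16 were positive, and the median over all tested genes was 0.0282.

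For 3 of the clusters, sums were taken over their members. The summed level of the HOXB genes was 451 ± 4.20 CPM in shCTR, 491 ± 27.3 CPM in shMETTL3 and 434 ± 0.953 CPM in shMETTL14 cells (mean ± SD, n = 2). Without HOXB9 it was 204 ± 3.62, 219 ± 12.2 and 219 ± 1.09 CPM, so the lower HOXB sum in shMETTL14 cells came from HOXB9. The HOXC sum was 35.9 ± 2.99, 39.7 ± 0.204 and 37.1 ± 0.0478 CPM. The HOXD sum was 1.21 ± 0.428, 4.19 ± 0.634 and 1.40 ± 0.183 CPM, which is nearly all HOXD8. As ratios to shCTR, shMETTL3 cells were at 1.09 for HOXB, 1.11 for HOXC and 3.45 for HOXD, and shMETTL14 cells at 0.963, 1.03 and 1.16, respectively. No test was made on these sums.

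The 21 members below the filter were read rarely but not evenly. Their summed reads were 12 and 23 in shCTR, 49 and 46 in shMETTL3 and 33 and 14 in shMETTL14 libraries. All rows below the filter, 43975 in number, held 26846 and 25113, 29426 and 28883, and 27290 and 28724 reads. The shMETTL3 libraries were thus highest in both, and by more in the HOX genes.
HOXA2, a gene of the branchial arches, had 0 reads in both shCTR libraries, 5 and 4 in shMETTL3 and 2 and 2 in shMETTL14 libraries. HOXA13 and HOXD13, both posterior genes that shape the digits, had 0 reads in shCTR. HOXA13 had 3 and 3 reads in shMETTL3 and 1 and 0 in shMETTL14 libraries, and HOXD13 had 5 and 1 and then 3 and 1. Of the 21 genes, 15 had no read in either shCTR library, and 5 of these 15 (HOXA2, HOXA4, HOXA6, HOXA13 and HOXD13) had reads in both shMETTL3 libraries and 3 (HOXA2, HOXD12 and HOXD13) in both shMETTL14 libraries. Among all 31184 rows below the filter without a read in shCTR, the shares were 2.46% and 2.28%. That larger set holds rows of every type, not protein-coding genes alone, so the shares are not like for like. Genes chosen for 0 reads in shCTR could only be equal or higher in the knockdowns, so these counts give no direction. Most of these HOX counts were at or under 3 reads, and no test was made on them. HOXA4 shares 31.0% of its exon bases with a gene on the same strand and 16.3% with HOXA-AS2 and HOXA-AS3 on the other. HOXA6 shares 39.3% with HOXA-AS3 on the other strand. Reads of these genes may therefore not be separated.

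HOXA3 had 0 and 5 reads in shCTR, 8 and 13 in shMETTL3 and 2 and 2 in shMETTL14 libraries. Its exons overlap with HOXA-AS2 and HOXA-AS3 on the other strand over 15.4% of their bases, where HOXA-AS2 had 6 and 5, 16 and 20, and 1 and 5 reads, and reads of the 2 strands may not be separated. HOXA11 had 3 and 6, 7 and 9, and 6 and 4 reads, HOXA5 4 and 2, 3 and 8, and 0 and 3, and HOXC11 2 and 7, 7 and 5, and 11 and 1. HOXA5 and HOXC11 overlapped between the groups, and HOXA11 was higher in both shMETTL3 libraries than in the other 4. HOXA11 shares 31.1% of its exon bases with HOXA11-AS on the other strand, so reads of these genes may not be separated. HOXA4, HOXA6, HOXC5, HOXD3, HOXD4, HOXD9, HOXD10 and HOXD12 ranged from 0 to 3 reads. HOXD4 was the only one of the members in this range with reads in shCTR alone, at 1 and 2.

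The genes around the 2 HOX genes called in shMETTL3 cells were examined over 500 kb on either side. Around HOXD8, 5 genes were tested and HOXD8 was the only one called in shMETTL3 against shCTR. EVX2, the homeobox gene at the posterior end of the HOXD cluster, had 6 and 5 reads in shCTR, 11 and 16 in shMETTL3 and 14 and 9 in shMETTL14 libraries (log2 fold change in shMETTL3 cells 1.25 ± 0.534, adjusted p = 0.119). LNPK and MTX2, the genes that flank the cluster, had log2 fold changes of -0.06 ± 0.0745 and -0.01 ± 0.0635.
Around HOXB13, 21 genes were tested and HOXB13 was the only one called. The nearest, LINC03057, lay on the HOXB9 side with a log2 fold change of 1.02 (adjusted p = 0.0637), and CALCOCO2 on the other side had -0.05 (adjusted p = 0.663).

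**Figure D4:**
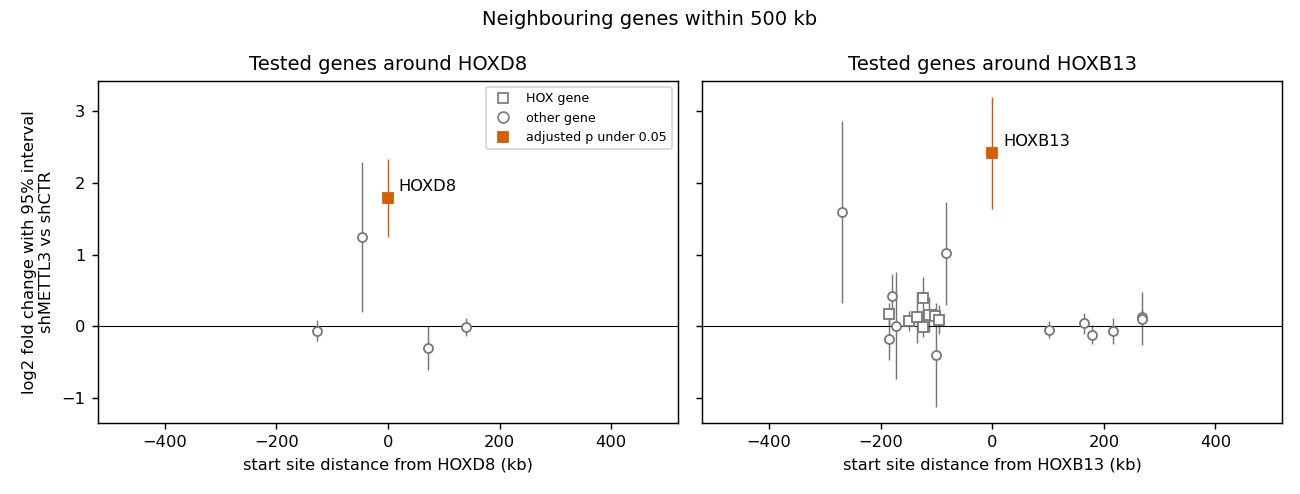
Log2 fold change of shMETTL3 against shCTR, with bars for the 95% interval, for each tested gene within 500 kb of HOXD8 (5 genes) and HOXB13 (21 genes), by distance between start sites in kb. Squares are HOX genes, circles are other genes, and in each panel the central HOX gene is the only one filled, that is, with an adjusted p under 0.05.

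The cofactors of the HOX proteins moved in both directions in shMETTL3 cells. Of 9 genes in the MEIS, PBX and PKNOX families, all tested, 3 were higher and 1 was lower in shMETTL3 against shCTR, none was called in shMETTL14 against shCTR by edgeR or DESeq2 (2 were higher at an unadjusted p under 0.05), and 3 were higher and 1 lower in shMETTL3 against shMETTL14. Over all tested genes the shares called higher and lower were 8.73% and 7.73%, 3.43% and 3.26%, and 6.65% and 5.49% in these 3 comparisons. MEIS1, the partner of HOXA9 in leukemia, had 195 and 178 reads in shCTR, 101 and 119 in shMETTL3 and 159 and 168 in shMETTL14 libraries. The shMETTL3 libraries were lowest, with a log2 fold change of -0.79 ± 0.147 against shCTR (adjusted p = 0.00098) and -0.59 ± 0.149 against shMETTL14 (adjusted p = 0.0118), and the second of these was lost without shMETTL3 replicate 1 or either shMETTL14 library (adjusted p up to 0.151).
PBX3 had 62 and 66, 150 and 191, and 93 and 84 reads, with a log2 fold change of 1.38 ± 0.181 against shCTR (adjusted p = 3.24e-05) and 0.93 ± 0.173 against shMETTL14. Both calls held in all 15 alternatives.
MEIS3 had 42 and 55, 88 and 88, and 56 and 44 reads, with a log2 fold change of 0.83 ± 0.220 against shCTR (adjusted p = 0.0139) and 0.80 ± 0.219 against shMETTL14 (adjusted p = 0.0201). The call against shCTR was lost without shCTR replicate 1 or either shMETTL3 library (adjusted p up to 0.129), and that against shMETTL14 without any 1 library of those groups (adjusted p up to 0.205). PKNOX2, with 3 and 10, 19 and 11, and 2 and 3 reads, was called higher in shMETTL3 against shMETTL14 (adjusted p = 0.0195), where the shMETTL14 libraries were at or under 3 reads. Only the shMETTL3 libraries and shCTR replicate 2 reached the minimum count of 10 of the filter. PKNOX2 thus passed the filter only with the help of the group where it was highest. DESeq2 gave it no adjusted p, and the edgeR call was lost without shMETTL3 replicate 1 or either shMETTL14 library (adjusted p up to 0.223).

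**Figure D5:**
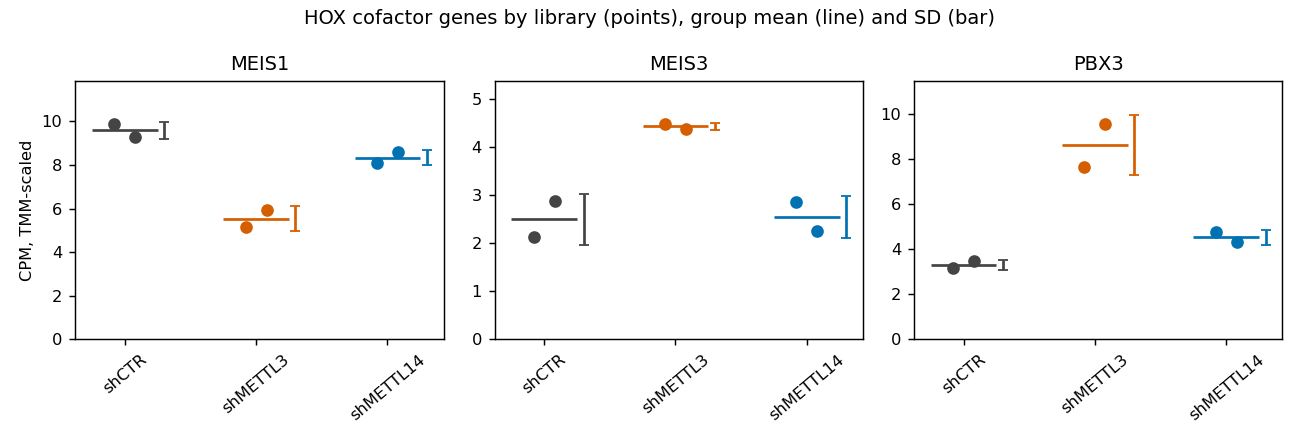
Level in TMM-scaled CPM of the HOX cofactors MEIS1, MEIS3 and PBX3 in each library (points), with the group mean (line) and SD (bar, n = 2). MEIS1 is lowest in the shMETTL3 libraries, and the other genes are highest there.

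Among 20 trithorax and MLL-complex genes, all tested, none was higher in either knockdown against shCTR by edgeR or DESeq2 (2 in each at an unadjusted p under 0.05), and 3 were lower in shMETTL3 and 1 in shMETTL14 cells, where 7.73% and 3.26% of all tested genes were lower. The median log2 fold change was -0.02 in both. AFF1, a fusion partner of MLL and part of the super elongation complex, had a log2 fold change of -0.43 ± 0.0714 in shMETTL3 cells (adjusted p = 0.00038) and -0.04 ± 0.0705 in shMETTL14 cells. KDM6A, a histone demethylase that removes the Polycomb mark, was at -0.28 ± 0.0833 (adjusted p = 0.0238) and MLLT10, a partner of DOT1L, at -0.20 ± 0.0668 (adjusted p = 0.0439). KDM6A lost its call without shCTR replicate 1 or either shMETTL3 library (adjusted p up to 0.227), and MLLT10 on leaving out any library but shCTR replicate 2 (adjusted p up to 0.342).
ASH2L, a core subunit of the MLL complexes, was the gene lower in shMETTL14 cells, at -0.34 ± 0.0621 (adjusted p = 0.00178, and up to 0.0555 without shMETTL14 replicate 2). In shMETTL3 against shMETTL14, 2 genes of this list were higher and 3 lower (6.65% and 5.49% of all tested genes), led by AFF1 (-0.38), MLLT3 (-0.33), KDM6B (0.33) and KMT2A (-0.24), the gene for MLL itself. AFF1 held in all 15 alternatives, whereas leaving out a library of the compared groups ended the calls of MLLT3 and KMT2A in each case and that of KDM6B for shMETTL3 replicate 2 and shMETTL14 replicate 1 (adjusted p up to 0.214, 0.28 and 0.0981, respectively).

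Among 27 Polycomb genes, all tested, 2 were higher and 5 lower in shMETTL3 against shCTR, 1 was higher and 2 were lower in shMETTL14 against shCTR, and 2 were lower and none higher in shMETTL3 against shMETTL14 by edgeR (2 higher at an unadjusted p under 0.05, none by DESeq2). The shares of all tested genes called higher and lower were 8.73% and 7.73%, 3.43% and 3.26%, and 6.65% and 5.49%, respectively. EED, the core subunit of PRC2 that binds its own histone mark, had 1413 and 1235 reads in shCTR, 829 and 889 in shMETTL3 and 1047 and 1008 in shMETTL14 libraries. All shMETTL3 and shMETTL14 libraries were below those of shCTR. Its log2 fold change was -0.65 ± 0.0735 in shMETTL3 cells (adjusted p = 5.17e-06) and -0.38 ± 0.0724 in shMETTL14 cells (adjusted p = 0.00267, and up to 0.0744 without shMETTL14 replicate 2).
JARID2, an accessory subunit of PRC2, was at -0.31 ± 0.0630 (adjusted p = 0.00204) and EZH1, a catalytic subunit, at -0.29 ± 0.0677 (adjusted p = 0.00576) in shMETTL3 cells. EZH1 kept its call on leaving out each library except shMETTL3 replicate 2 (adjusted p = 0.11). CBX6, a chromodomain protein of PRC1, was higher at 0.30 ± 0.0800 (adjusted p = 0.0145), and lost its call without shCTR replicate 1 or shMETTL3 replicate 2 (adjusted p up to 0.283) and when the trends on GC content and length were removed.
In shMETTL14 cells CBX2 was higher at 0.29 ± 0.0718 (adjusted p = 0.0191) and RBBP4, a histone-binding subunit, lower at -0.27 ± 0.0594 (adjusted p = 0.00919). CBX2 lost its call without shCTR replicate 1 or either shMETTL14 library (adjusted p up to 0.204), and RBBP4 without either shMETTL14 library (adjusted p up to 0.135). EZH1 (-0.37 ± 0.0676) and EED (-0.28 ± 0.0748) were lower in shMETTL3 than in shMETTL14 cells, EZH1 in all 15 alternatives and EED not without any 1 library of those groups (adjusted p up to 0.193).

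A list of 12 genes held CTCF, which codes for an insulator protein, and retinoid and caudal factors, which act upstream of HOX genes in the embryo. Of these 12, 5 were tested, namely RARA, RARG, RXRA, RXRB and CTCF. None was called by edgeR or DESeq2 in any comparison, also at an unadjusted p under 0.05. The caudal factors CDX1, CDX2 and CDX4 had at most 1 read in any library and were not tested. Of 18 noncoding genes of the clusters, 8 were tested, and 1 was called higher in shMETTL3 against shCTR and against shMETTL14 by edgeR (8.73% and 6.65% of all tested genes). HOXA-AS2, transcribed from the strand opposite to HOXA3, with the reads given beside HOXA3, was higher in shMETTL3 cells by a log2 fold change of 1.66 ± 0.532 against shCTR (adjusted p = 0.038) and 2.52 ± 0.602 against shMETTL14 (adjusted p = 0.00799). It reached the minimum count of 10 of the filter only in the shMETTL3 libraries. It was therefore tested only through the group where it was highest, and its calls are not independent of the filter. Leaving out either library of shCTR or shMETTL3, or shMETTL14 replicate 2, ended the first call (adjusted p up to 0.257), and leaving out shMETTL3 replicate 2 or shMETTL14 replicate 1 the second (adjusted p up to 0.165). DESeq2 gave no adjusted p for HOXA-AS2 in any comparison.
HOTAIR, HOTTIP and HAGLR, noncoding genes known from the HOXC, HOXA and HOXD clusters, had at most 5 reads in any library. Of 14 genes that flank the clusters, 9 were tested, and none was called by edgeR or DESeq2 in shMETTL3 against shCTR (4 were higher at an unadjusted p under 0.05). CALCOCO1, beside HOXC, was higher in shMETTL14 cells at 0.27 ± 0.0671 (adjusted p = 0.0187, and up to 0.239 without shCTR replicate 1 or either shMETTL14 library). SKAP2, beside HOXA, and CBX5, beside HOXC, were higher in shMETTL3 than in shMETTL14 cells at 0.40 (adjusted p = 0.0227) and 0.23 (adjusted p = 0.0184). The call of SKAP2 was lost without either shMETTL3 library or shMETTL14 replicate 1 (adjusted p up to 0.32) and that of CBX5 without any 1 library of those groups (adjusted p up to 0.202).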

How the data were processed

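RNA-seq was analysed for K562 cells in 3 groups of 2 libraries, with groups taken from the sample titles. The table deposited by the authors gives raw counts, as whole reads assigned to each of 61661 rows, of which 60675 were Ensembl genes and 986 were genes assigned outside the annotation, kept in the library totals. The submitters' processing notes name HTSeq 0.6.1 and build hg38; the strand setting and the handling of reads shared between paralogs are not given in the sources used here. Symbols were taken from the gene name table (56558 rows) and from GENCODE 29 (497 more), positions and transcript lengths from GENCODE 29 and promoter sequences from RefSeq (GRCh38.p14).

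In R 4.3.3, edgeR 4.0.16 was used on all 6 libraries: after filterByExpr (minimum count 10), 17686 genes were left and scaled with TMM factors of 0.980 to 1.022, and the groups were contrasted in 1 fit by the quasi-likelihood test, with Benjamini-Hochberg adjustment over all tested genes. A gene was called at an adjusted p under 0.05. Intervals of fold changes are 95% intervals from the SE under a normal approximation. Fold changes are relative to the TMM-scaled total. Libraries of a group differed by more than sampling noise (chi-square per gene 2.45 to 5.03). Alternatives were DESeq2 1.42.0, other scalings, looser filters, the compared groups alone, a replicate block, removal of GC and length trends (mgcv 1.9.3; 94.2% of tested genes had both values) and leaving out each library.

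All members are accounted for in the counts, 1 tested member and 1 cofactor being not reported here by name. For each list of related genes, counts are given and up to 4 called genes with the largest change per comparison are named. EVX2, LNPK, MTX2, LINC03057 and CALCOCO2 were named for their position. Members, lists and tests were chosen with earlier results of these data known. Reads carry no molecular identifiers, so intervals and floors cover counting error only.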

Additional observations from a re-analysis of the deposited data

Results flagged for a closer look

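The knockdown groups differed in 3 HOX genes when shMETTL3 was compared directly with shMETTL14 in the edgeR quasi-likelihood test. HOXD8 was higher in shMETTL3 cells by a log2 difference of 1.71 (82 and 74 reads against 19 and 28). HOXB13 was higher by 1.50 (35 and 37 reads against 13 and 12), a call that was lost on leaving out any 1 of these 4 libraries. HOXB9 was higher by 0.34 (5120 and 5658 reads against 4207 and 4201).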

How the results depend on the processing

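In shMETTL3 against shCTR, 2 HOX genes were called, against 1 with DESeq2 (HOXD8) and 5 with scaling by library size alone (with HOXC13, HOXB6 and HOXB9 added). The calls also varied on leaving out each library, which leaves 1 library in a group. Without shCTR replicate 2, HOXA3 was added, although it was not tested in the main fit. It then entered through 13 reads in shMETTL3 replicate 2, against 0 in shCTR replicate 1, so this is not read as a result. In shMETTL14 against shCTR, the 1 call, HOXB9, became 0 with scaling by library size alone, no filter on low counts, a minimum count of 3 and the compared groups alone, and 0 to 1 on leaving out each library. In shMETTL3 against shMETTL14 the 3 calls ranged from 2 to 4. The replicate numbers did not pair the libraries (correlations of deviations 0.0614, 0.00511 and -0.020). With the replicate block the counts were 3, 1 and 3 in the order above, and 2, 1 and 4 with the GC and length trends also removed. No called HOX gene changed direction under any alternative. With the union of exons as length, the summed level fell from 183 to 165 CPM per kb for HOXB and from 21.3 to 18.9 for HOXC. Among the other genes named, calls were also lost with DESeq2 (MEIS3 in both comparisons, KDM6A, MLLT10, and MEIS1, MLLT3 and SKAP2 against shMETTL14; HOXA-AS2 and PKNOX2 had no adjusted p there), with library size alone (KDM6A, MLLT10, KMT2A), without a filter (KDM6A, MLLT10, KMT2A, CBX2, CALCOCO1, SKAP2, HOXA-AS2) and with the compared groups alone (KDM6A, MLLT10). With 2 libraries a group and 5 to 37 reads for HOXB13, depth limits the precision of the posterior genes.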
